A study of Mus musculus with 113 samples.

Results

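The nuclear genes of oxidative phosphorylation were followed through the 2-cell (2C), 4-cell (4C) and 8-cell (8C) stages of mouse embryos and through the loss of 4 nuclear receptors. The members are every gene symbol of the expression files that starts with Nduf, Uqcr, Atp5 or Cox4 to Cox8, together with Sdha, Sdhb, Sdhc and Sdhd. This rule, which uses names and no measured value, gave 92 of 24006 symbols. They comprise 43 genes of complex I, 4 of complex II, 8 of complex III, 20 of complex IV and 17 of complex V. By role, 74 are subunits found in most tissues (20 core subunits, 43 accessory subunits and 11 nuclear subunits of complex IV), 8 are tissue isoforms of complex IV, 7 are assembly factors of complex I, 1 is the supercomplex factor Cox7a2l and 2 are related proteins that share the Atp5 prefix. The files list no gene of the mitochondrial genome, so the catalytic core of complex IV and several core subunits of complexes I, III and V were not measured.

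As background, complexes I and II feed electrons from NADH and succinate into the inner mitochondrial membrane, complex III passes them to cytochrome c, complex IV reduces oxygen, and complex V, the ATP synthase, uses the resulting proton gradient to make ATP. Each complex except complex II is built from subunits of both the nuclear and the mitochondrial genome. Early cleavage-stage embryos inherit their mitochondria and many transcripts from the oocyte, and activation of the zygotic genome replaces maternal transcripts with embryonic ones.

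All embryos were labelled wild type. The labels of the RNA libraries name no strain, and the study's methods give PWK/PhJ fathers and C57BL/6N mothers, but C57BL/6J where they describe the keeping of the mice. Each library was made by Smart-seq2 from whole embryos. Pools of several embryos, with 2 libraries in each group, had received siRNA in the zygote. The 4KD pools (4C and 8C) carried siRNA against Nr5a2, Rarg, Nr1h3 and Nr2c2 at 5 μM each, with a negative control (NC) at 20 μM. The 3KD pools (8C), in 4 groups, lacked the siRNA against Nr5a2, Rarg, Nr1h3 or Nr2c2 in turn, with an NC at 15 μM. The single KD groups (8C) carried 1 of the siRNAs at 5 μM, with an NC at 5 μM. At 2C, Nr5a2 siRNA and NC were each labelled as 20 μM. In a separate experiment, single embryos at 2C and at 8C had received mRNA of a base editor (BE, 8 embryos), Nr5a2 sgRNA (8 embryos) or BE + sgRNA (14 embryos), with 100 ng/μL given in the labels. siRNA lowers a transcript without removing it, and base editing changes the sequence of Nr5a2 while its transcript stays: the mean Nr5a2 level at 8C was 52.1 FPKM in BE + sgRNA, 50.0 FPKM in BE and 42.4 FPKM in sgRNA embryos.

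Values were FPKM (fragments scaled by transcript length and sequencing depth), which can therefore be compared between genes. FPKM hold no read counts, so the depth behind a value is unknown. The FPKM of a library summed to 265390 to 556462 in pools, to 150877 to 375454 in 2C embryos and to 83392 to 474480 in 8C embryos, and 5472 to 11921 genes reached 1 FPKM. In 3 libraries the name of the value column gives a 4-cell embryo and the label another stage: replicate 8 of the 2C sgRNA embryos, and replicates 13 and 14 of 8C BE + sgRNA. Column names further hold BE4 or eBE. Embryos whose name holds neither were placed by library number: BE4 within the range of the BE4 embryos of that stage, eBE outside it. The 3 libraries with a 4-cell name were placed in neither. These 2 sets of embryos, called runs here, were also fitted separately. Each target was lower in its own single KD pools: the mean FPKM of 2 pools was 11.2 for Nr5a2 (49.5 in NC), 4.56 for Rarg (30.5 in NC), 0.394 for Nr1h3 (10.7 in NC) and 0.700 for Nr2c2 (9.99 in NC).

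The promoters of 5 members are printed because results below turn on these genes or, for Uqcrc1, because it shows the most common motif of the set in tandem. Each run is the 300 bases from 250 before to 50 after the start of the gene in RefSeq on GRCm38.p6, 5′ to 3′ on the gene's strand. Capitals mark the motifs searched on both strands: the palindromic motif of NRF1 (a nuclear factor of respiratory genes), CCGGAAG of ETS factors such as GABPA, AAGATGGCG of YY1, CAAGGTCA of NR5A2, TNAAGGTCA of ESRRA and the direct repeat of NR2C2. The letters of NR5A2 and ESRRA overlap. Cox6b2 lies at chr7:4753045-4753344 on the minus strand, Cox6b1 at chr7:30626065-30626364 on the minus strand, Ndufa8 at chr2:36049289-36049588 on the minus strand, Ndufs6 at chr13:73328433-73328732 on the minus strand and Uqcrc1 at chr9:108936398-108936697 on the plus strand.
Cox6b2: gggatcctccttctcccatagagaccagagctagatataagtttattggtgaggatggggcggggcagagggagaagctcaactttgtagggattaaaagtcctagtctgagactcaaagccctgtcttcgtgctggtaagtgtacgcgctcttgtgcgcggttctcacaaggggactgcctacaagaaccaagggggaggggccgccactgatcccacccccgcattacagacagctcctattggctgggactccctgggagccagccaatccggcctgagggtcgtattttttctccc
Cox6b1: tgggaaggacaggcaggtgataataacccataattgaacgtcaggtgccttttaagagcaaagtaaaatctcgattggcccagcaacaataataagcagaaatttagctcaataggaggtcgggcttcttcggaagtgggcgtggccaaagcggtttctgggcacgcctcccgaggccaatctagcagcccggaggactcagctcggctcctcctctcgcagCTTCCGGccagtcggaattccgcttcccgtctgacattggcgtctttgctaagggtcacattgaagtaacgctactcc
Ndufa8: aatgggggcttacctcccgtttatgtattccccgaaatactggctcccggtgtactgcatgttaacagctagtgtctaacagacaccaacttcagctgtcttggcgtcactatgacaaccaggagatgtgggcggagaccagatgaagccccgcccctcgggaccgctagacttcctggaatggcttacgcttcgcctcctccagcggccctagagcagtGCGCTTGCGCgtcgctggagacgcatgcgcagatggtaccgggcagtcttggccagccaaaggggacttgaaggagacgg
Ndufs6: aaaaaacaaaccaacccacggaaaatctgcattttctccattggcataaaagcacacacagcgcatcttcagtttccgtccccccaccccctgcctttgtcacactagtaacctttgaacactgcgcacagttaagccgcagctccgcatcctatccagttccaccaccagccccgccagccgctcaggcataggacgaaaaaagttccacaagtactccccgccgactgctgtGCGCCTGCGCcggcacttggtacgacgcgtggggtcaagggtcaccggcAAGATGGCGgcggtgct
Uqcrc1: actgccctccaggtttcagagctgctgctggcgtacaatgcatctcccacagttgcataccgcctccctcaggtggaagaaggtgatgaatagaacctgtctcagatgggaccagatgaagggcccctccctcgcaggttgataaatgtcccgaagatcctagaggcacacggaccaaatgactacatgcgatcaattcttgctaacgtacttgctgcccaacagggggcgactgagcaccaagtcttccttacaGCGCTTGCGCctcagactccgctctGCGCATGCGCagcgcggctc

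RefSeq promoters were matched to 76 of the 92 members by symbol. The NRF1 motif was found in 19 of these (25.0%), against 5.19% of 27025 genes with a promoter. The ETS motif was found in 17 members (22.4%, all genes 9.93%) and the YY1 motif in 8 (10.5%, all genes 1.64%). The NR5A2 motif was found in 4 members (5.26%, all genes 1.76%): Atp5g3, Atp5l, Ndufs5 and Sdhd. The ESRRA motif was found in 3 (3.95%, all genes 1.43%) and the NR2C2 motif in none, with 0.0481% of all genes holding it. The NR2C2 repeat was searched in 1 fixed spelling, with A as the first base of each repeated unit. Other spellings of it were not counted, so its absence holds for that spelling only. These counts describe letters in a window and are no sites of binding. The members' promoters had a median GC content of 58.3% and a median of 19.5 CpG, against 52.8% and 7.0 for all genes. In the printed set, Cox6b1 holds 1 ETS motif, Ndufa8 1 NRF1 motif, Ndufs6 an NRF1 and a YY1 motif and Uqcrc1 2 NRF1 motifs, while none of the 6 motifs occurs in the window of Cox6b2. The window of Ndufs6 also holds, shortly before its YY1 motif, a direct repeat like that of NR2C2. There G stands for the first A of each unit, so the search did not count it and it is in lower case. Whether NR2C2 binds there was not tested.

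To see how these genes change with development, the 16 control embryos at 8C (BE and sgRNA) were compared with the 16 at 2C in a limma fit over all 60 single embryos. Most members were higher at 8C. Of 90 members tested, 70 rose and 4 fell at an adjusted p under 0.05 (limma on log2(FPKM + 1), Benjamini-Hochberg over 12991 genes). Of all genes, 72.5% were called, with 3753 genes higher and 5668 lower. A higher level was called for 28.9% of all genes and a lower one for 43.6%. The median log2 fold change was 1.83 over the members and -0.31 over all genes, a difference of 2.13. In libraries of whole embryos, a change in the number of cells that hold a transcript and a change of transcript per cell cannot be told apart, and FPKM give shares of a library and not amounts per embryo.

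**Figure D1:**
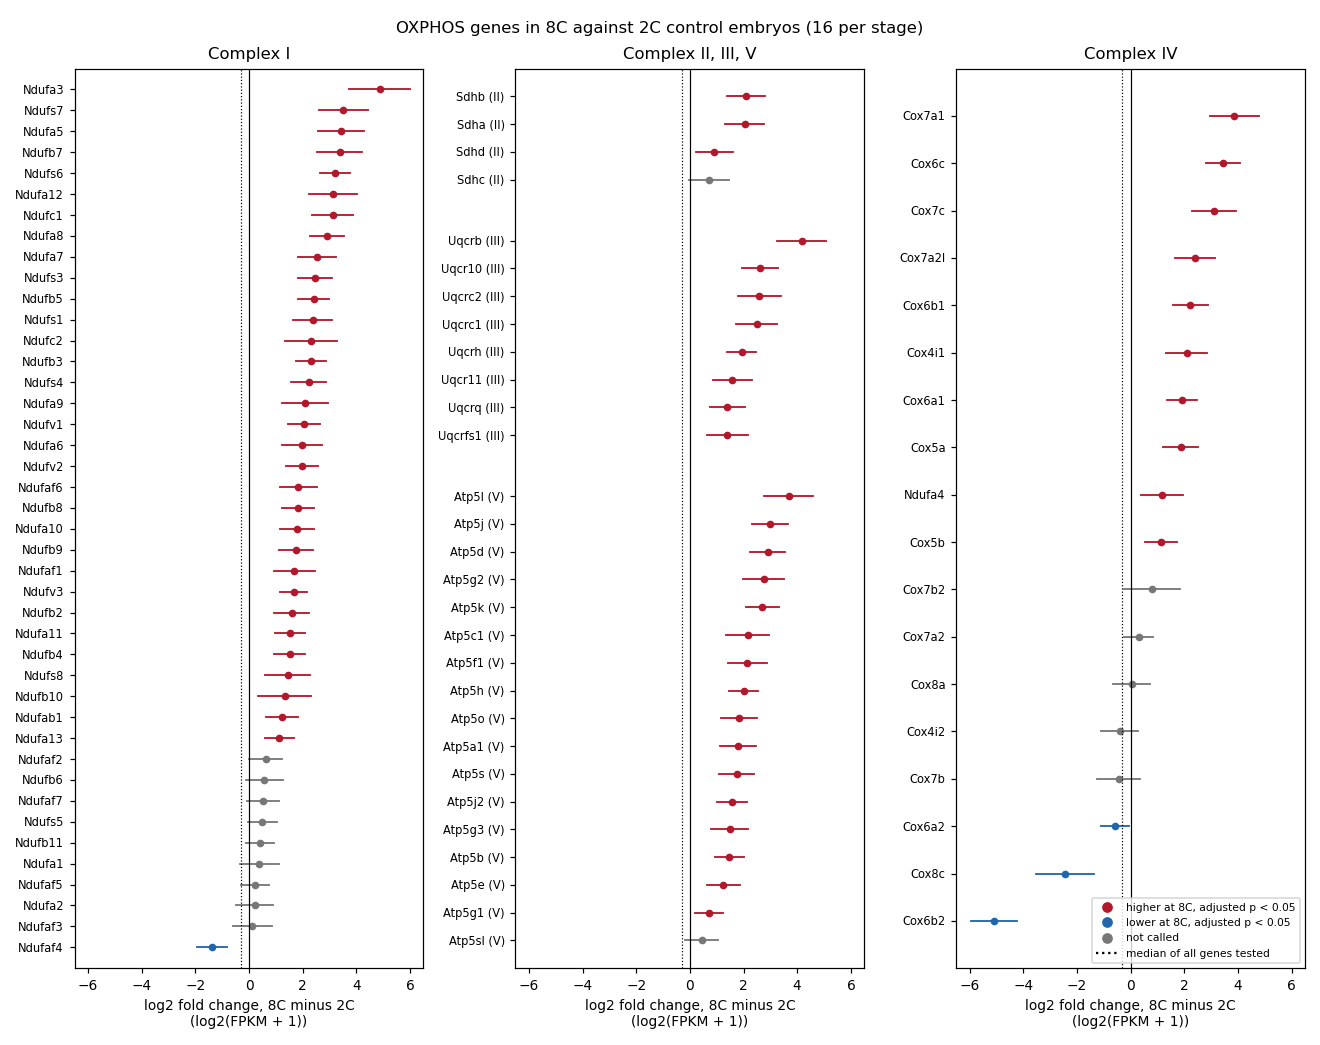
Log2 fold change from 2C to 8C control embryos (16 per stage, horizontal axis, log2(FPKM + 1)) of the members tested except 1 of complex I, by complex, with 95% intervals; red points were called higher, blue points lower and grey points not called, and the dotted line marks the median of all genes. The points of complexes I, II, III and V lie to the right of that line except Ndufaf4, and the points of complex IV spread from -5.10 (Cox6b2) to 3.86 (Cox7a1).

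In complex I, which oxidises NADH, 33 of 43 members rose and 1 fell. All 7 core subunits were among those that rose. The iron-sulphur subunit Ndufs1 rose by 2.38 on the log2 scale (SE 0.36), from a mean of 4.78 to 30.1 FPKM. The change of Ndufv1, which binds NADH, was 2.05 (SE 0.30). The largest changes of the complex were those of the accessory subunit Ndufa3 (4.86, SE 0.57, adjusted p = 3.51e-11) and the core subunit Ndufs7 (3.52, SE 0.45, adjusted p = 6.51e-10). Ndufa3 lay between 0 and 163 FPKM at 2C, with a median of 15.1, and between 78.8 and 875 FPKM at 8C, with a median of 381. It was listed at 0 in 3 of the 16 2C embryos and in none at 8C. By mean level, Ndufc1 was the highest member of the complex at 8C (441 FPKM). Ndufs5 was listed near 0 in most libraries, and has 1 near-identical copy elsewhere in the genome.

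The assembly factors of complex I, help to build it and are not part of the finished complex. Of 7, 2 rose, 1 fell and the others were not called, and their median log2 fold change was 0.53. Ndufaf1 rose from 5.40 to 17.5 FPKM and Ndufaf6 from 4.27 to 15.5 FPKM. Ndufaf4 fell by 1.38 on the log2 scale (SE 0.28, adjusted p = 1.81e-05), from 25.4 to 8.45 FPKM. A difference between the assembly factors and the subunits was not tested, as the members share libraries.

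Complex II, the succinate dehydrogenase, had 3 of 4 subunits higher at 8C. The flavoprotein Sdha rose from 5.73 to 32.1 FPKM (log2 fold change 2.04, SE 0.36) and the iron-sulphur subunit Sdhb from 15.5 to 72.6 FPKM (2.09, SE 0.35). The change of the membrane anchor Sdhc, 0.72 (SE 0.37), missed the threshold at an adjusted p of 0.0785. The members of this complex had low levels: the mean of Sdhc at 8C was 18.0 FPKM.

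All 8 members of complex III, the cytochrome c reductase, rose. Uqcrb, a small subunit next to the quinone site, changed most of them (4.17, SE 0.46, adjusted p = 4.22e-12). Its level was 1.37 to 78.5 FPKM at 2C and 82.6 to 494 FPKM at 8C, so that every 8C control lay above every 2C control. In all, 5 members of the whole set had such separate groups in this direction (Uqcrb, Cox6c, Atp5j, Ndufa8 and Ndufa7), against 0.87% of all genes. Of these, Uqcrb has 3 near-identical copies elsewhere in the genome and Cox6c has 1. The exons of Uqcrb, Cox6c and Atp5j each overlap 1 other gene. Whether reads were shared with these copies or genes was not tested. The Rieske protein Uqcrfs1 rose by 1.40 (SE 0.39) and Uqcrc1, a core protein of the complex, by 2.49 (SE 0.38). Uqcr10 was the highest member of the complex at 8C, with 986 FPKM.

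Complex V gave 16 of 17 members higher at 8C. The catalytic core of the ATP synthase rose: Atp5a1 from 80.6 to 274 FPKM (1.79, SE 0.34) and Atp5b from 259 to 709 FPKM (1.47, SE 0.27). The 3 genes of the proton-carrying c ring encode the same mature protein, and their changes were 0.71 (SE 0.27) for Atp5g1, 2.75 (SE 0.38) for Atp5g2 and 1.48 (SE 0.34) for Atp5g3. Atp5g1 was the highest of them at both stages, at 173 and 264 FPKM. Its change did not keep its sign under every alternative, with a range of -0.26 to 0.95. Atp5g2 has 3 near-identical copies elsewhere in the genome, and Atp5l, the member of complex V with the largest change (3.69, SE 0.46), has 10. Reads of these genes could have been shared with their copies, and whether the copies are transcribed was not tested.

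Complex IV, the cytochrome c oxidase, was the mixed one: 10 of its 18 members tested rose and 3 fell. Its median log2 fold change was 1.15. Of the 11 nuclear subunits found in most tissues 8 rose, among them Cox4i1 (2.09, SE 0.38) and Cox5a (1.86, SE 0.32). Cox6c rose from 101 to 1025 FPKM (3.44, SE 0.31, adjusted p = 8.13e-15), with 23.8 to 216 FPKM at 2C and 312 to 1709 FPKM at 8C. Cox8a, a small membrane subunit, had the highest mean of all members at both stages: 1677 FPKM at 2C and 1684 FPKM at 8C. Its log2 fold change was 0.03 with a 95% interval of -0.64 to 0.71, and its sign was not the same under every alternative (-1.22 to 0.38). It made up 22.3% of the summed mean levels of the members at 2C and 9.08% at 8C. The log2 fold change of Cox7a2 was 0.30 (SE 0.27, adjusted p = 0.321) and that of Cox7b -0.45 (SE 0.40, adjusted p = 0.303).

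Tissue isoforms of complex IV moved apart. Cox6b2, known as the testis isoform of the subunit on the outer face of the complex, fell by 5.10 on the log2 scale (SE 0.42, adjusted p = 2.16e-16), from a mean of 726 to 22.2 FPKM. In the 16 2C controls it lay between 118 and 1376 FPKM, with a median of 686, and in the 16 8C controls between 3.89 and 58.1 FPKM, with a median of 16.7. Every 8C control was below every 2C control, as for 2.39% of all genes. At 2C it ranked 14 among all 24006 symbols by mean level, and at 8C 2534. Its common counterpart Cox6b1 rose from 202 to 812 FPKM (2.23, SE 0.33, adjusted p = 3.19e-08). The genes are at chr7:4703396-4704696 (Cox6b2) and chr7:31401993-31411170 (Cox6b1) on mm9, both on the minus strand with 4 exons, and neither has an overlapping gene or a near-identical copy.

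The share of Cox6b2 in the summed FPKM of Cox6b1 and Cox6b2 was also computed within each library. It was 28.4% to 94.6% in the 2C controls, with a median of 82.3%, and 0.537% to 7.57% in the 8C controls, with a median of 2.08%. The lowest 2C value belongs to sgRNA replicate 8, whose column name gives a 4-cell embryo, and the next lowest sgRNA embryo had 80.8%. In pools that were not part of this comparison, the share was 60.1% and 70.8% in 2C NC, 2.04% and 11.8% in 4C NC and 1.23% to 2.97% in the 6 8C NC pools. The 4C pools lay between the pools of the other stages or beside those of 8C. Among edited embryos, 8C BE + sgRNA replicates 13 and 14, also with a 4-cell column name, had shares of 11.6% and 23.4%.

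Of the other isoforms, 3 were called. Cox8c, an isoform known from testis, fell by 2.45 (SE 0.54, adjusted p = 7.36e-05), with a median of 7.03 FPKM at 2C and of 0 at 8C, where 13 of 16 embryos listed it at 0. Cox7a1, the isoform of heart and skeletal muscle, rose by 3.86 (SE 0.45, adjusted p = 3.51e-11), from a mean of 6.202 to 60.6 FPKM. It was listed at 0 in 6 of the 16 2C controls and lay between 21.0 and 110 FPKM at 8C. Cox6a2, the muscle isoform of Cox6a1, stayed at 3.40 FPKM or less in every control embryo, and its fall of 0.57 (adjusted p = 0.0455) was called in 6 of 15 alternatives. Cox4i2 (mean 4.82 and 2.86 FPKM) and Cox7b2 (1.86 and 5.84 FPKM) were not called. Cox8b was listed at 0 in all control embryos, and Ndufa4l2 reached no more than 1.81 FPKM in them.

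**Figure D2:**
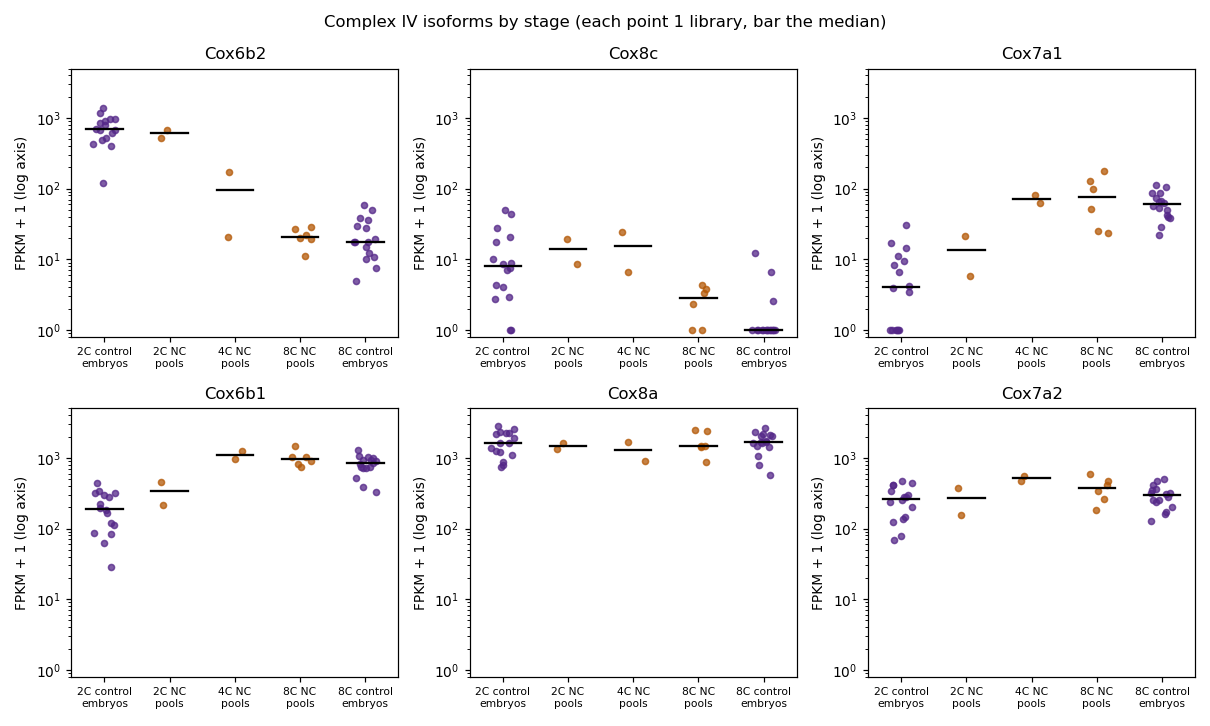
FPKM + 1 (log axis) of 3 tissue isoforms of complex IV (upper row) and the common isoform of each (lower row), with 1 point per library and a bar at the median, in 2C and 8C control embryos and in NC pools at 2C, 4C and 8C. Cox6b2 falls from a median of 686 FPKM in 2C to 16.7 FPKM in 8C control embryos while Cox6b1 rises from 188 to 831 FPKM, and Cox8a keeps medians of 1621 and 1690 FPKM.

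Summed over the 92 members, the level was 3285 to 13290 FPKM in the 2C controls, with a median of 7835, and 8268 to 24840 FPKM in the 8C controls, with a median of 18520. The difference of the mean log2 sums was 1.37 (2.58-fold), against a pooled SD within stages of 0.53. As a percent of the FPKM of the library, the members made up 1.65% to 4.26% at 2C (median 2.91%) and 3.75% to 6.201% at 8C (median 4.83%), a log2 difference of 0.73. FPKM sums moved with the stage: their medians were 275750 over all 2C embryos and 427559 over all 8C embryos. The median share of complex I was 0.456% at 2C and 1.08% at 8C, that of complex III 0.260% and 0.607%, that of complex V 0.569% and 1.17% and that of complex IV 1.65% and 1.75%, with no test of these shares.

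**Figure D3:**
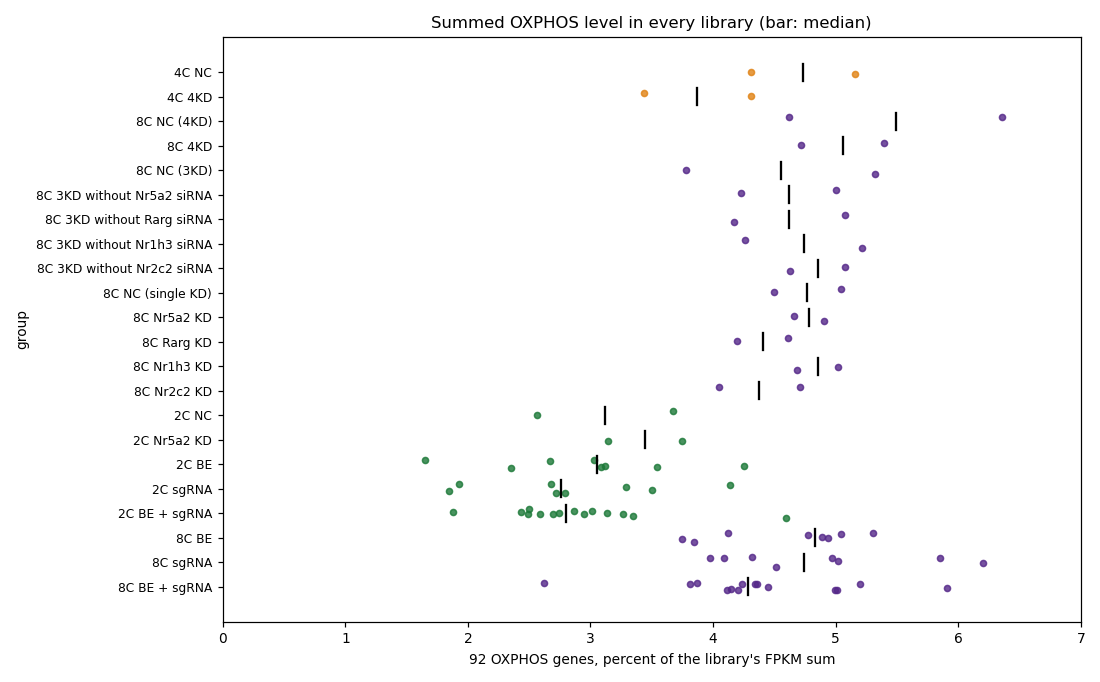
Percent of the FPKM sum of a library held by the 92 members (horizontal axis) in each of the 92 libraries, by group, with 1 point per library and a bar at the group median; green is 2C, orange 4C and purple 8C. The 2C NC pools sit at 2.56% and 3.67%, the 4C NC pools at 4.31% and 5.16%, and the 8C NC pools between 3.78% and 6.36%.

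Of the 74 members called, 64 were called under every one of 17 alternatives other than the limits of the study's methods and the fits within 1 run, and 73 kept their sign in all of them, the exception being Atp5g1. The counts were 74 higher and 4 lower within the eBE embryos and 49 higher and 1 lower within the BE4 embryos. The placement, which rests in part on library numbers, put no 2C sgRNA embryo among the BE4 embryos. With libraries scaled to the same FPKM sum they were 63 higher and 6 lower, with medians of 1.26 over the members and -0.64 over all genes. Leaving out the libraries with a 4-cell column name gave 70 and 4. The share of all genes called in these alternative fits is not given here, so their counts cannot be set against it. In the main fit 28.9% of all genes were called higher and 43.6% lower.

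The pools carry the same comparison in other embryos, but across experiments and without a common fit. Of 90 members tested, 65 had every 8C NC pool above every 2C NC pool, as did 21.3% of 11656 genes, and 4 had every 8C NC pool below, as did 31.6%. All 70 members called higher in single embryos had a higher mean in the 8C NC pools (6 libraries) than in the 2C NC pools (2 libraries), and 63 of them with no overlap. The 4 called lower had a lower mean. Of the 70, every member had a higher mean in 4C NC than in 2C NC pools, and for 61 the 4C mean lay between those of 2C NC and the 8C NC of the same experiment. Uqcrb, for example, had 10.99 and 27.1 FPKM in the 2C NC pools, 155 and 194 in the 4C NC pools and 119 to 490.5 in the 8C NC pools.

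Within the 4KD experiment, where 4C and 8C NC pools share a fit, no member was called between the stages (limma, 0.0% of all genes called), and 3 of 89 had an unadjusted p under 0.05 (3.37%, all genes 7.41%). The median change from 4C to 8C was 0.33 over the members and -0.01 over all genes, with 70 members higher and 19 lower. That median was 0.056 without 4C NC replicate 1, 0.506 without 4C NC replicate 2, 0.073 without 8C NC replicate 1 and 0.695 without 8C NC replicate 2.

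Other genes of the pathway were read from lists. Of 20 other respiratory chain genes, 13 rose from 2C to 8C and 1 fell, with Cyc1, the cytochrome c1 of complex III, at 2.38 (SE 0.44, from 19.5 to 87.5 FPKM) and Cycs, the somatic cytochrome c, at 0.53 (SE 0.31, adjusted p = 0.112). Of 29 assembly factors outside the rule 13 rose and 5 fell. Of 15 regulators of mitochondrial biogenesis tested 7 rose and 1 fell: Tfam, which packs and transcribes mitochondrial DNA, rose by 0.76 (adjusted p = 0.029), Nrf1 by 0.87 (adjusted p = 0.0162) and the receptor Esrra by 1.06 (0.737 to 2.46 FPKM), and Gabpa was at 0.44 (SE 0.38) and not called. Of 77 mitochondrial ribosomal proteins 64 rose and 1 fell, with a median of 1.695, and of 82 cytosolic ribosomal proteins tested 79 rose and 2 fell, with a median of 3.19. A rise was thus seen in other lists of housekeeping genes too, and no difference between lists was tested.

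Markers of the stage and of other cells moved in the same comparison. Of 7 oocyte markers 6 fell, of 6 markers of the 2C stage all 6 fell and of 6 markers of 8C all 6 rose. Of 7 cumulus and granulosa markers 1 passed the filter on low values and fell, and their sum was 0 to 12.5 FPKM over all 2C embryos and 0 to 1.31 FPKM over all 8C embryos. Of 3 blood markers Hba-a1 alone passed and fell, at up to 245 FPKM at 2C and up to 32.9 FPKM at 8C, with the other 2 at 0 in every 2C embryo. The part of these cells in the changes of the members was not tested.

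The limma p-values of the pools rest on the spread between the 2 libraries within each group. This spread was pooled over the groups of an experiment and moderated over genes. No p-value of the pools can be taken to cover a spread between mothers, as no source says that the libraries came from separate mothers. Knockdown of the 4 receptors was compared with NC to ask whether the members depend on them. In 4KD embryos no member was called at 4C or at 8C, with 0.0% of 10476 genes called in either fit. At an unadjusted p under 0.05, 10 of 89 members (11.2%, all genes 5.82%) stood out at 4C and 2 (2.25%, all genes 7.48%) at 8C. The median log2 fold change was -0.41 over the members and -0.004 over all genes at 4C, with 24 members higher and 65 lower. At 8C it was -0.15 and 0, with 33 higher and 56 lower. No member had a called difference of the 4KD effect between the stages (0.0% of all genes called, 0 members and 2.47% of all genes at an unadjusted p under 0.05). With a median half-width of 1.05 for the 95% intervals, changes of less than 2-fold were mostly not resolved: the interval lay within 2-fold for 8 members at 4C and 11 at 8C.

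The 3KD groups had 0 members called by limma against NC in each case, with 0.0% of 10626 genes called in the groups that lacked the Nr5a2 or the Nr2c2 siRNA, 0.0565% in the group that lacked Rarg siRNA and 0.00941% in the one that lacked Nr1h3 siRNA. Members with an unadjusted p under 0.05 numbered 3, 1, 1 and 0 of 89, in the order Nr5a2, Rarg, Nr1h3 and Nr2c2. These are 3.37%, 1.12%, 1.12% and 0% of the members, beside 2.36%, 6.25%, 6.95% and 7.37% of all genes. The medians in this order were 0.12, 0, 0.05 and 0.10 on the log2 scale over the members, beside 0.13, 0.12, 0.11 and 0.11 over all genes. The 4 groups share their NC pools. The replicate numbers pair these pools, and a fit blocked by that number called Ndufs6 lower than in NC in 2 groups. These were the group that lacked Rarg siRNA (adjusted p = 0.0136 in limma) and the one that lacked Nr1h3 siRNA (adjusted p = 0.0381 in limma). Both groups carried Nr2c2 siRNA. The share of all genes called in these blocked comparisons is not given here. Embryos without Nr5a2 siRNA were also compared with the mean of the other 3KD groups. No member was called, with 0.282% of genes called, and 2 had an unadjusted p under 0.05 (2.25%, all genes 10.1%), but in the blocked fit Ndufa8 alone was called higher (adjusted p = 0.0236 in limma, 2.47% of genes called).

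Of the single KD groups, Nr5a2 KD and Nr2c2 KD had 1 member called each, and Rarg KD and Nr1h3 KD had none. Calls over all 10163 genes amounted to 2.75% in Nr5a2 KD, to 0.0787% in Nr2c2 KD and to 0.00984% in both Rarg KD and Nr1h3 KD. Members with an unadjusted p under 0.05 numbered 10 of 89 (11.2%) in Nr5a2 KD, below the 18.1% of all genes, and also 10 (11.2%) in Nr2c2 KD, above the 4.19% of all genes. They numbered 5 (5.62%, all genes 3.76%) in Rarg KD and 1 (1.12%, all genes 2.92%) in Nr1h3 KD. In the order Nr5a2, Rarg, Nr1h3 and Nr2c2, the medians over the members were -0.21, -0.23, 0.02 and -0.29, beside -0.22, -0.08, 0.003 and -0.24 over all genes. With libraries brought to the same level by median ratios, the median in Nr5a2 KD was 0.10 over the members and 0.01 over all genes. In Nr1h3 KD the 95% interval of the change lay within 2-fold for 39 of 89 members (43.8%, all genes 15.0%), in Nr5a2 KD for 24 and in Nr2c2 KD for 25. The share of complex I in the library was 0.783% and 0.807% in the Nr2c2 KD pools, below the NC pools, of which the lower had 1.05%. That of complex IV was 1.72% and 2.19% against 1.76% and 1.96%. These shares were not tested and are not given for the other single KD groups, so a low share of complex I cannot be called particular to Nr2c2 KD. The share of complex I includes Ndufs6, the member called in Nr2c2 KD. The median of all members minus that of all genes was -0.149 in Rarg KD and -0.048 in Nr2c2 KD.

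**Figure D4:**
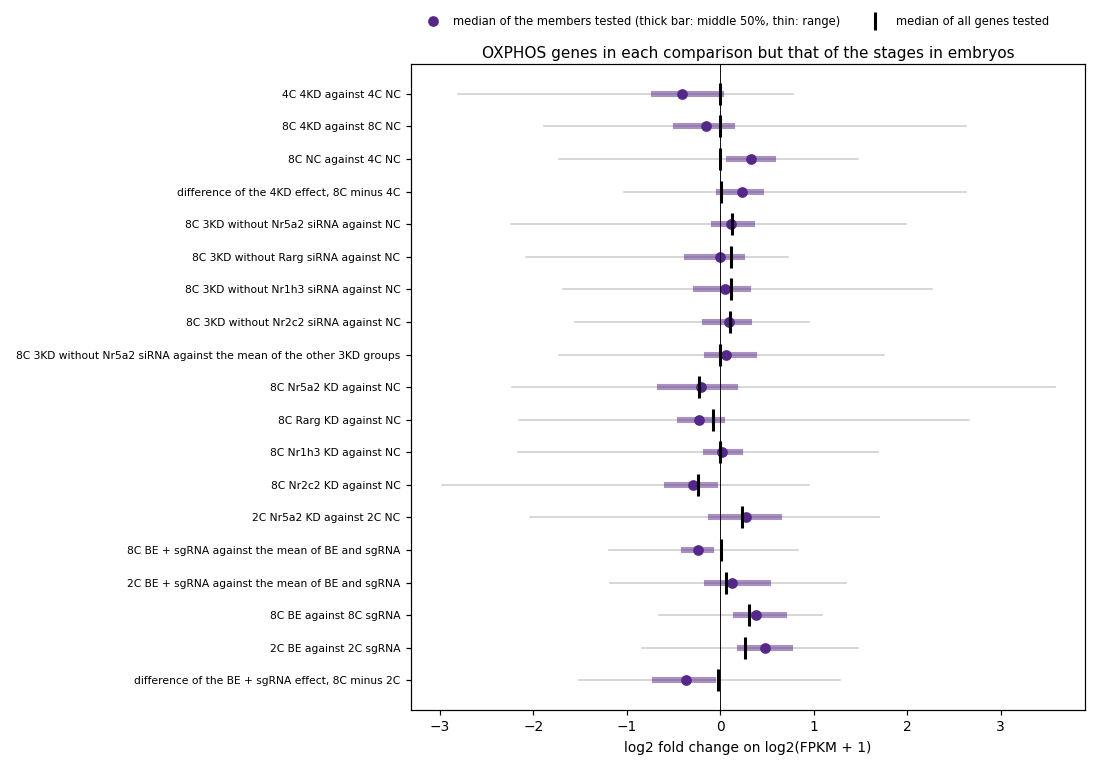
Log2 fold change (horizontal axis, log2(FPKM + 1)) of the members in each comparison other than that of the stages in single embryos: the purple point is the median of the members tested, the thick bar the middle 50%, the thin line the range and the black tick the median of all genes tested. The medians of the members lie between -0.41 (4C 4KD) and 0.48 (2C BE against sgRNA).

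The member lower in Nr5a2 KD was Ndufa8, an accessory subunit of complex I imported into the intermembrane space. Its level was 92.4 and 73.9 FPKM in the 8C NC pools and 20.8 and 13.7 FPKM in the Nr5a2 KD pools. Both KD pools lay below both NC pools, as in 33.1% of all genes, and the log2 fold change was -2.22 (SE 0.37, adjusted p = 0.0104 in limma). Pools of the other single siRNAs had 44.3 and 65.9 FPKM (Rarg), 72.0 and 61.8 (Nr1h3) and 38.7 and 48.4 (Nr2c2). The call held in 11 of 14 alternatives, with adjusted p-values of 0.00492 to 0.127. It was lost without NC replicate 1, without NC replicate 2 and at the limits of the study's methods. Ndufa8 is at chr2:35891846-35904926 on the minus strand of mm9, with 4 exons, no overlapping gene and no near-identical copy.

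The pools of the 4KD and 3KD experiments, which played no part in that call, gave the following levels of Ndufa8. With Nr5a2 siRNA it was 5.15 and 21.0 FPKM in 4C 4KD against 74.6 and 81.2 in 4C NC, and 45.7 and 22.0 FPKM in 8C 4KD against 122 and 92.9 in 8C NC. In the 3KD groups with Nr5a2 siRNA it was 16.7 and 69.9 FPKM (without Rarg siRNA), 34.9 and 37.8 (without Nr1h3 siRNA) and 18.3 and 50.2 (without Nr2c2 siRNA). Without Nr5a2 siRNA it was 92.7 and 145 FPKM, and in NC 48.2 and 172 FPKM. The groups overlap in the 3KD experiment through 1 NC pool. Over these 18 pools, the mean log2 difference of Ndufa8 with against without Nr5a2 siRNA was -1.875, with p = 0.000529 in a two-sided exact permutation test over 7560 assignments within experiment and stage, and an adjusted p of 0.000529 over the 2 genes tested. This test and its 2 genes were chosen after the values had been seen, and the adjustment does not cover the other members. In the 4KD pools all the siRNAs were present or absent together, so only the 3KD groups separate Nr5a2 siRNA from the others. With the replicate number kept within the 3KD pools, which it pairs, p was 0.000278 over 3600 assignments by the same exact permutation, the smallest it can give, and the adjusted p was 0.000278.

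At 2C, where the gene is low, Ndufa8 did not show this pattern: 2C NC pools had 1.16 and 14.9 FPKM and 2C Nr5a2 KD pools 7.25 and 7.26 FPKM. In single 8C embryos with an edited Nr5a2 it lay between 28.03 and 91.1 FPKM (median 44.9), and in the controls between 22.0 and 121 FPKM (median 68.9). The groups overlap, and the log2 fold change was -0.38 with a 95% interval of -0.87 to 0.115 (adjusted p = 0.620 in limma).

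The member lower in Nr2c2 KD was Ndufs6, an accessory subunit of complex I that binds zinc. It had 498 and 412 FPKM in the 8C NC pools and 34.1 and 93.6 FPKM in the Nr2c2 KD pools, which did not overlap, as in 33.9% of all genes. The log2 fold change was -2.98 (SE 0.43, adjusted p = 0.0359 in limma). In the pools of the other single siRNAs it was 306 to 444 FPKM. The call held in 4 of 14 alternatives, with adjusted p-values of 0.00955 to 0.579, and was lost without NC replicate 1, NC replicate 2 or Nr2c2 KD replicate 1. Ndufs6 is at chr13:73457286-73465990 on the minus strand of mm9, with 3 exons, no overlapping gene and no near-identical copy.

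In the other experiments, Ndufs6 was lower in the pools with Nr2c2 siRNA, which in the 4KD pools came only together with the other siRNAs. Only the 3KD groups separate Nr2c2 siRNA from the others. It was 25.7 and 96.6 FPKM in 4C 4KD against 268 and 137 in 4C NC, and 119 and 85.4 FPKM in 8C 4KD against 501 and 283 in 8C NC. In the 3KD groups with Nr2c2 siRNA it was 103 and 150 FPKM (without Nr5a2 siRNA), 79.2 and 77.9 (without Rarg siRNA) and 79.4 and 134 (without Nr1h3 siRNA). In the group without Nr2c2 siRNA it was 336 and 397 FPKM, and in NC 238 and 470 FPKM. None of the pools with Nr2c2 siRNA overlapped the pools without it at either stage. The mean log2 difference over these 18 pools was -1.841, with p = 0.000132 in the same exact permutation test, the smallest it can give, and an adjusted p of 0.000264. With the replicate number kept it was 0.000278, again the smallest the exact permutation can give. Nr2c2 siRNA was absent at 2C and from the single embryos, so the loss of Nr2c2 and the presence of this siRNA cannot be told apart in these data.

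**Figure D5:**
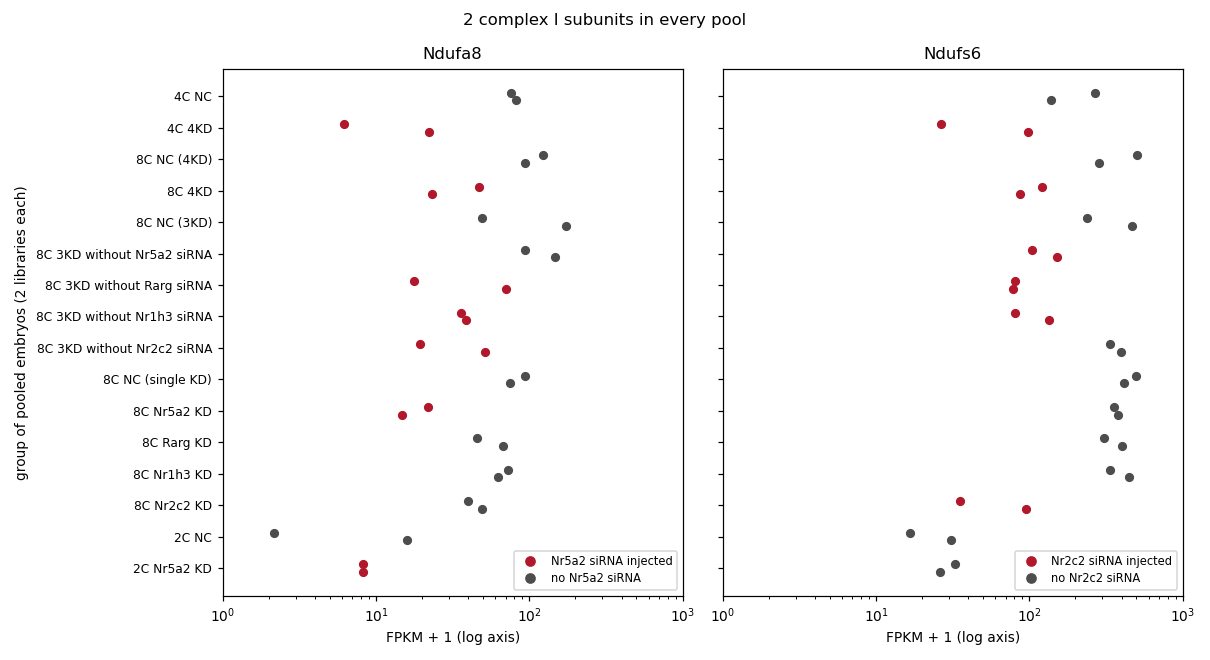
FPKM + 1 (log axis) of Ndufa8 (left) and Ndufs6 (right) in each of the 32 pools by group, with 1 point per pool; red pools received Nr5a2 siRNA (left) or Nr2c2 siRNA (right). For Ndufs6 every red pool at 8C lies between 34.1 and 150 FPKM and every grey pool at 8C between 238 and 501 FPKM, while red and grey pools overlap for Ndufa8.

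At 2C, Nr5a2 KD had no member called (0.0167% of 11958 genes called, 7 of 89 members at an unadjusted p under 0.05, which is 7.87% beside 4.67% of all genes). The median over the members was 0.28 and that over all genes 0.23, with 61 members higher and 28 lower. Scaling to the same FPKM sum brought these medians to 0.095 and 0.071.

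Embryos with an edited Nr5a2 were set against BE and sgRNA embryos, averaged with equal weight. At 8C no member was called (limma, 0.164% of 9760 genes called), and 3 of 89 had an unadjusted p under 0.05 (3.37%, all genes 10.8%). Of the members, 15 were higher and 74 lower, with a median of -0.23 against 0.015 over all genes. The interval lay within 2-fold for 57 of 89 members (64%, all genes 71%). The median over the members was -0.12 and that over all genes 0.10 without the libraries of a low FPKM sum. At 2C no member was called either (0.00805% of 12420 genes called, 9 of 88 members at an unadjusted p under 0.05, which is 10.2% beside 11.6% of all genes), with medians of 0.13 and 0.07. The difference of the editing effect between the stages was called for none (0.0385% of 12991 genes called, 6 of 90 members at an unadjusted p under 0.05, which is 6.67% beside 9.68% of all genes). BE and sgRNA embryos gave no call for any member in limma at 8C (0.0% of genes called, 4 of 89 at an unadjusted p under 0.05) or at 2C (0.0% of genes called, 8 of 88 at an unadjusted p under 0.05). These are 4.49% of the members at 8C (all genes 7.94%) and 9.09% at 2C (all genes 7.92%). The medians were 0.38 and 0.48, beside 0.31 and 0.27 over all genes.

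Ndufaf2, an assembly factor of complex I, had the smallest p of the members in edited 8C embryos and was chosen after its values were seen. It lay between 1.32 and 40.0 FPKM (median 16.7) in BE + sgRNA embryos and between 10.9 and 79.1 FPKM (median 38.0) in the controls, and its log2 fold change of -1.19 (SE 0.34) had an adjusted p of 0.217 in limma. Under median-ratio scaling, under quantile normalization and without libraries of a low FPKM sum the adjusted p was 0.033, 0.0367 and 0.0433. These 3 are all the calls in 16 alternatives, over which the adjusted p reached 0.999. In Nr5a2 KD pools Ndufaf2 had 18.4 and 12.2 FPKM against 70.1 and 36.7 in NC (log2 fold change -1.69, SE 0.43, adjusted p = 0.0651 in limma), and 2 of 14 alternatives called it, with adjusted p-values of 0.0413 to 0.35. In Nr2c2 KD pools it had 31.3 and 20.1 FPKM, and in the 8C 4KD pools 39.8 and 56.1 FPKM against 90.2 and 28.9 in NC. Cox8c was listed at 0 in both 8C NC pools of the single KD experiment and at 6.655 and 17.6 FPKM in the Nr5a2 KD pools (adjusted p = 0.0715 in limma).

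The replicate spread set how far these levels could be read. The median SD of a member on the log2 scale was 0.52 in 8C BE, 0.82 in 8C sgRNA and 1.02 in 8C BE + sgRNA embryos, and 0.93, 1.14 and 0.92 in the same groups at 2C. For all genes it was 0.54, 0.77 and 0.86 at 8C and 0.81, 0.96 and 0.78 at 2C.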

How the data were processed

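RNA was measured by paired-end Smart-seq2 in 92 of 113 samples (60 single embryos and 32 pools of embryos, in 22 groups). The other 21 are genomic DNA libraries (CUT&RUN, ChIP, input and ATAC) and were not analysed here. Per the methods, the authors trimmed the reads, mapped them with TopHat to mm9 and computed the deposited FPKM per gene symbol with Cufflinks on a UCSC refFlat annotation. Values of genes with near-identical copies therefore depend on how reads were shared. FPKM hold no counts, so the depth is unknown. The steps between low FPKM gave a relative depth of 0.363 to 1.526.

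The values were taken as log2(FPKM + 1). Genes with a mean of at least 1 FPKM in a group were fitted by limma 3.58.1 in R 4.3.3 with a trend, once per experiment over all its groups, and p-values were adjusted by Benjamini-Hochberg over all genes tested. A gene was called at an adjusted p under 0.05. Of the 92 members 87 were tested in every comparison, Cox6a2, Ndufb4 and Ndufs5 in some, and Cox8b and Ndufa4l2 in none. The values of 1 member of complex I are not reported here, though it stays in the counts. The fits were also run on simulated data with normal noise and large added changes, which does not bear on smaller changes. The members and lists were chosen with earlier results of these data known. The text names the members with the largest called changes, core subunits, isoform families, the highest and lowest subunit of a complex and the targeted genes, and others are said to have been chosen after their values were seen; this holds for Ndufa8 and Ndufs6 outside the comparisons that called them. Replicate numbers paired the 3KD pools (correlation of deviations 0.299 to 0.544 over 10 pairs). The correlations were -0.043 to 0.148 in the single KD pools and 0.005 in the 2C pools. In the 4KD pools they were -0.324 to 0.375 (median -0.3), so these numbers may pair within a stage and cross between the stages. The main fits and the permutations did not keep the 4KD numbers. Gene positions are from GENCODE vM1 on mm9 and promoters from RefSeq on GRCm38.p6. Copies are places in the mm9 genome, outside the gene, where minimap2 2.31-r1302 aligned its transcript. They had at least 95% identity over at least 50% of the transcript. Of 89 members searched, 14 had at least 1 copy. Alternatives were other pseudocounts (0.1), filters (none or 5 FPKM), scalings, the limits of the study's methods (adjusted p under 0.01 and a log2 change of at least 2), the replicate block, fits on fewer groups and leaving out libraries.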

Additional observations from a re-analysis of the deposited data

Results flagged for a closer look

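In the 4 groups of 8 control embryos, 33 quantities were looked at in each, and in 17 of these 132 sets 1 embryo stood far from the others. The limit, that of Dixon's test, sets the gap to the next value against the range. It flags about 1 in 20 sets of normally distributed values. FPKM need not be normal, some sets hold many values of 0 and the sets share embryos. The number of sets that chance would flag here is therefore not known. Of the 17, 5 were high or low values of 2C sgRNA replicate 8, whose column name gives a 4-cell embryo: Atp5g2 at 47.1 FPKM, Cox7a1 at 29.4 FPKM, Ndufa3 at 96.5 FPKM, Ndufs6 at 129 FPKM and a share of Cox6b2 in Cox6b1 and Cox6b2 of 28.4%. In this library cytosolic ribosomal proteins made up 8.42% of the FPKM, against at most 3.15% in the other 2C sgRNA embryos. Leaving out all libraries with such a column name kept 70 members higher and 4 lower from 2C to 8C.

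The other 2C embryos with a value far above their group were BE replicate 1 for Atp5g3 (93.1 FPKM), BE replicate 5 for Ndufa3 (163 FPKM) and Ndufa8 (21.5 FPKM), sgRNA replicate 5 for Cox5a (368 FPKM) and sgRNA replicate 7 for Cox8c (42.9 FPKM). At 8C they were BE replicate 1 for Ndufv1 (68.6 FPKM), BE replicate 3 for Cox8c (11.1 FPKM), BE replicate 5 for Ndufaf4 (23.0 FPKM), sgRNA replicate 3 for Cox8c (5.65 FPKM) and sgRNA replicate 5 for Atp5g2 (143.5 FPKM) and the Cox6b2 share (7.57%). Atp5g3 in 8C BE replicate 2 (41.8 FPKM) lay below its group. No member passed the test of a difference between the stages in the effect of 4KD or of base editing.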

How the results depend on the processing

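Of 295 alternatives to a count of members called, 269 kept it within 1.5 times, and of 275 alternatives to a median 256 kept it and 0 reversed it. From 2C to 8C, 40 members passed the limits of the study's methods (19.0% of all genes), and the log2 difference of the summed level was 0.732 as a percent of the library. With the replicate block, 1 member was called in 3KD without Rarg siRNA, 1 in 3KD without Nr1h3 siRNA (Ndufs6 in both) and 1 in 3KD without Nr5a2 siRNA against the other 3KD groups (Ndufa8), and 0 in Nr2c2 KD. The block changed no other count of calls. With the 4KD numbers crossed between the stages, an alternative chosen after seeing the data, 0 members were called from 4C to 8C. In Nr5a2 KD, 2 members were called at a mean of at least 5 FPKM and under quantile normalization (Ndufa8 and Ndufaf2) and 2 with only the groups compared (Ndufa8 and Cox8c), and 0 at the methods' limits. In Nr2c2 KD, 0 were called with no filter on low values, under median-ratio scaling, under quantile normalization, without the trend, at the methods' limits and with only the groups compared. In edited 8C embryos, 1 (Ndufaf2) was called under median-ratio scaling, under quantile normalization and without libraries of a low FPKM sum. Leaving out 1 pool at a time gave 0 to 2 calls in Nr5a2 KD (0 without NC replicate 1; 2 without KD replicate 1, Ndufa8 and Cox7b, or KD replicate 2, Ndufa8 and Uqcrh), 0 to 1 in Nr2c2 KD (0 without NC replicate 1 or KD replicate 1), 0 to 1 in Rarg KD and 0 to 1 in Nr1h3 KD (1 without NC replicate 2), and 0 to 1 in 8C 4KD (1 without 8C 4KD replicate 2). The calls without NC replicate 2, and that in 8C 4KD, were of Ndufs5, which is listed near 0 in most libraries. A group left with 1 pool was assumed to vary like the others. The cause of these changes was not tested. For most of these alternatives the share of all genes called is not given here. With 2 pools in a group and no read counts, changes under 2-fold were mostly not resolved in the pools.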
